A study of Mus musculus with 15 samples.

Results

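The genes of glycolysis, the pentose phosphate pathway and glycogen turnover were read across Clic4-knockout and wild-type 6DT1 cells. The group is a list of 39 gene symbols, taken by name, and all 39 are among the 55341 gene symbols of the count table. 6DT1 is a mouse mammary cancer cell line, labelled with the strain background FVB/N1, and CLIC4 is an intracellular chloride channel protein. Polyadenylated RNA was sequenced from 15 libraries in 4 groups. The groups were knockout (KO) cells given 1 µM hydrogen peroxide (H2O2) for 24 h (n = 3), untreated KO cells (n = 4), wild-type (WT) cells given the same dose for the same time (n = 4) and untreated WT cells (n = 4). The labels state neither how the knockout was made, nor how many KO clones were used, nor whether replicates were separate cultures, so p-values measure the spread between these libraries.

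Glycolysis breaks glucose down to pyruvate in the cytosol, first spending ATP in its preparatory steps and then regaining more of it in its pay-off steps. Glucose enters through carriers of the SLC2A (GLUT) family, and pyruvate that is not oxidised in mitochondria is reduced to lactate and leaves through monocarboxylate carriers of the SLC16A (MCT) family, a route that many tumour cells use even when oxygen is present. The pentose phosphate pathway branches off at glucose phosphate: its oxidative arm makes NADPH, which feeds the peroxide-removing systems, and its non-oxidative arm returns sugars to glycolysis or makes ribose. Glycogen is the cell's glucose store.

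The libraries held 12.31 to 16.03 M counts. Clic4 itself had 68.4 to 75.9 CPM (counts per M, scaled between libraries) in treated KO cells, 64.2 to 75.05 CPM in untreated KO cells, 313.0 to 316.8 CPM in treated WT cells and 315.9 to 326.7 CPM in untreated WT cells, so its mRNA was lower and not absent. Of the epithelial markers, Krt8 averaged 649.5 CPM in untreated KO cells and 646.1 CPM in untreated WT cells, while Epcam and Cdh1 averaged under 0.1 CPM in every group. Krt18 averaged 153.5 CPM in untreated KO cells and 333.8 CPM in untreated WT cells, Krt19 156.0 CPM in KO and 54.25 CPM in WT, Csn3 63.0 CPM in KO and 102.3 CPM in WT, and Esr1 0.0817 CPM in KO and 3.27 CPM in WT. The summed levels of several marker lists differed with genotype, and their part in the results was not tested. In untreated cells the 10 epithelial markers summed to 980.7 to 1058 CPM in KO and 1096 to 1175 CPM in WT, the 5 fibroblast markers to 11.1 to 13.8 CPM in KO and 19.5 to 21.9 CPM in WT, and the 6 immune markers to 268.4 to 305.3 CPM in KO and 405.5 to 450.5 CPM in WT. Most of the fibroblast sum was Pdgfra, at 11.0 CPM in KO and 19.5 CPM in WT, while Col1a1 averaged 0.459 CPM in KO and 0.886 CPM in WT, Col1a2 0.281 CPM in KO and 0.101 CPM in WT, Dcn 0.287 CPM in KO and 0.155 CPM in WT, and Lum was at 0 in every library. Replicate 9 of untreated WT stood apart: it held 67 Ptprc counts against 1 over all other libraries, and 288 Lyz2 counts against 24. Its genotype field reads knockout, while its title, description and source name say WT, and its Clic4 lay in the WT range.

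Of the 39 members, 36 had enough counts to be tested. Without treatment 14 were higher and 12 lower in KO than in WT cells, and 10 did not pass, with edgeR's quasi-likelihood test and Benjamini-Hochberg adjustment over 13085 genes (adjusted p under 0.05). This has to be read against the whole transcriptome, where the same test called 66.8% of genes, 33.9% higher and 32.9% lower. By 1.5-fold or more, 3 members were called higher (Slc2a3, Fbp2 and Pfkfb3) and 3 lower (Slc16a3, Taldo1 and Pfkfb2). That is 16.7% of the tested members, against 24.4% of all genes (12.5% higher and 11.9% lower), and the difference of these shares was not tested. The libraries of the genotypes did not overlap for 22 of the 36 members, against 58.5% of all genes. The median size of the log2 fold change was 0.23 over the members and 0.30 over all genes. In bulk RNA, fewer cells carrying a transcript and less of it per cell cannot be told apart.

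With H2O2 the genotypes again differed in 14 members that were higher and 11 that were lower in KO cells, against 65.4% of all genes called, 33% higher and 32.4% lower. The same 6 members passed 1.5-fold, 3 higher and 3 lower, against 25.4% of all genes (12.8% higher and 12.7% lower), and 25 of 36 did not overlap, against 66.4% of all genes. No library is shared between this comparison and the untreated one. Both come from 1 fit to all 15 libraries with a shared estimate of the spread, so they are not fully independent. 24 members were called in both, 13 higher and 11 lower, and none in opposite directions. The share of all genes called in both was not counted. On their own, the untreated and treated comparisons called 66.8% and 65.4% of all genes. Gys1 and Pfkp were called only without treatment and Pgls only with it, but the difference between the comparisons did not pass the test for any of them (adjusted p 0.977 for Gys1, 0.977 for Pfkp and 0.913 for Pgls). The members lie on 17 chromosomes.

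**Figure D1:**
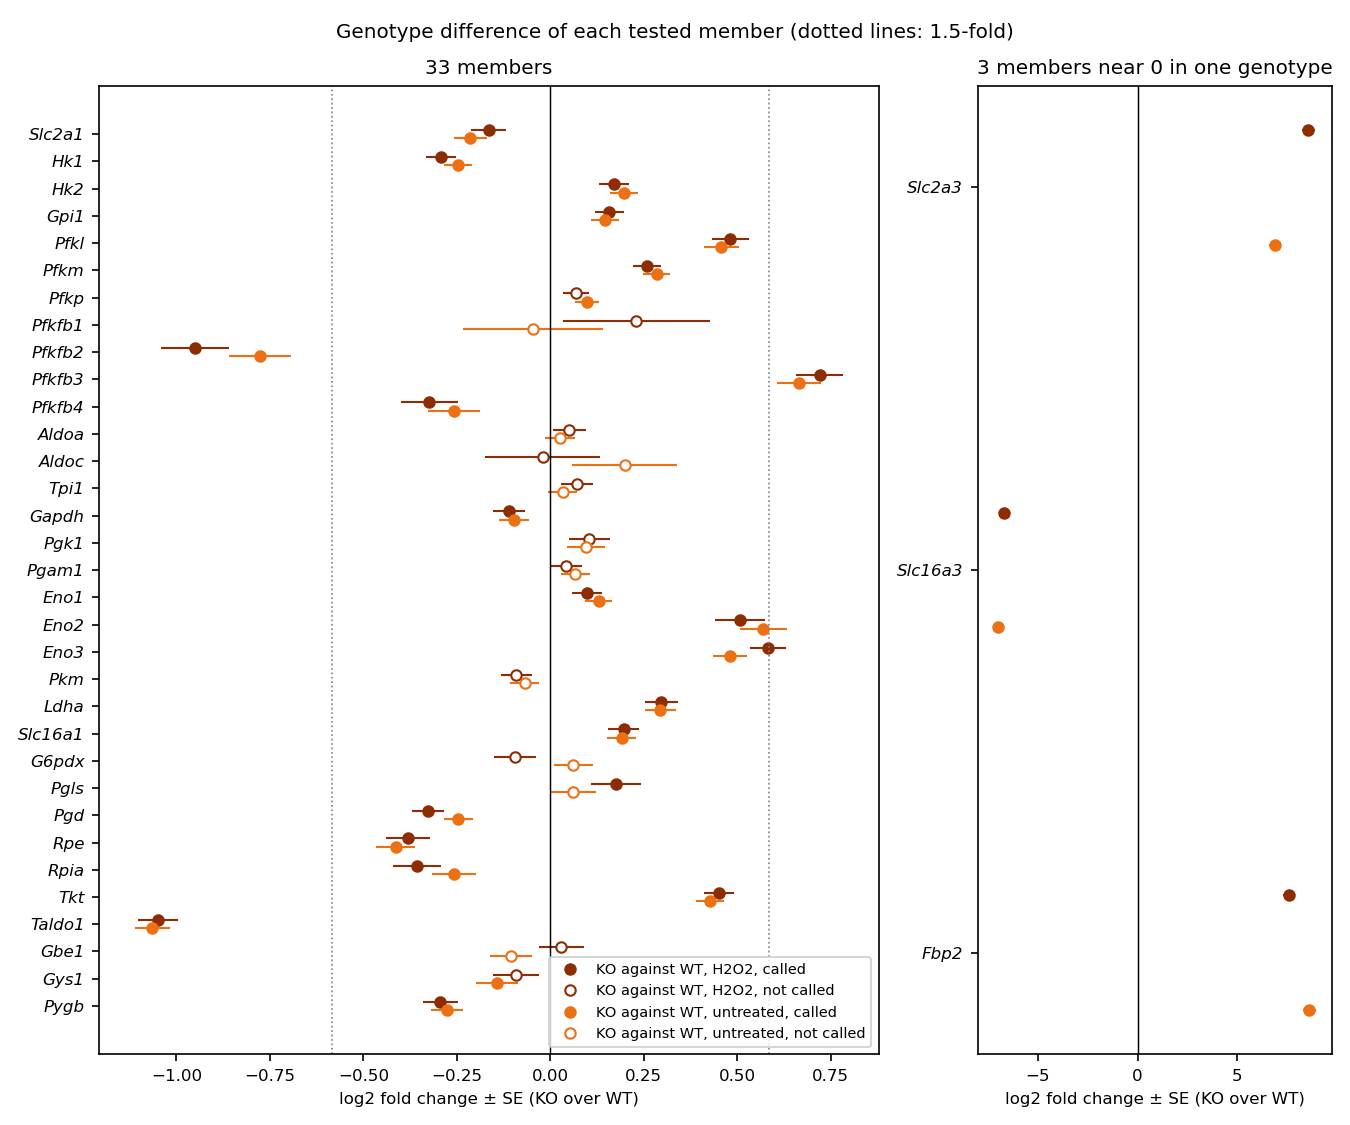
Log2 fold change of KO over WT (x axis) with its standard error for each tested member (y axis), with H2O2 in dark brown and untreated in orange; filled points passed an adjusted p of 0.05, and dotted lines mark 1.5-fold. Among the 33 members on the left, Taldo1 at −1.05 and −1.06 and Pfkfb2 at −0.95 and −0.78 lie farthest below 0 and Pfkfb3 at 0.72 and 0.66 farthest above, while Slc2a3, Slc16a3 and Fbp2 on the right were near 0 counts in WT or KO cells.

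Slc2a3, Slc16a3, Fbp2 and Taldo1 differed by over 2-fold in RNA between the genotypes. Slc16a3 was near 0 in KO cells, and Slc2a3 and Fbp2 were near 0 in WT cells. No promoter window was at hand for Slc2a3. The promoters of the other 3 are shown. Each is the RefSeq window of 250 bases before to 50 bases after the annotated start on GRCm38.p6, for Slc16a3 at chr11:120948817-120949116 on the plus strand, for Fbp2 at chr13:62858351-62858650 on the minus strand and for Taldo1 at chr7:141391910-141392209 on the plus strand. Capitals mark matches, on either strand, to ACGTG and GCGTG (cores of the hypoxia response element bound by HIF), CACGTG (the E-box bound by MYC, which holds ACGTG) or TGACNNNGC (core of the antioxidant response element bound by NRF2).
Slc16a3: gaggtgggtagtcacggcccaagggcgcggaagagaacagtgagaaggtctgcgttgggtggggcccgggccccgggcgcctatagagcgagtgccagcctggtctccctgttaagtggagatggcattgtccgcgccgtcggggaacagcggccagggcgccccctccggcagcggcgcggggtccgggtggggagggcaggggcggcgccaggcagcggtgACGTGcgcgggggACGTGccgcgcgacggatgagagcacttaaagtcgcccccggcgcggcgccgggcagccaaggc
Fbp2: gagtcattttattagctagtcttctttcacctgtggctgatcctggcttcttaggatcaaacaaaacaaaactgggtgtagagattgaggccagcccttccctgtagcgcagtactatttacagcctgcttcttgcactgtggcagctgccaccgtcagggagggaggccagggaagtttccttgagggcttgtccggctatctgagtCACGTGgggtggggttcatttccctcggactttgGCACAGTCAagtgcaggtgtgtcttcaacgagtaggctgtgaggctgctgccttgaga
Taldo1: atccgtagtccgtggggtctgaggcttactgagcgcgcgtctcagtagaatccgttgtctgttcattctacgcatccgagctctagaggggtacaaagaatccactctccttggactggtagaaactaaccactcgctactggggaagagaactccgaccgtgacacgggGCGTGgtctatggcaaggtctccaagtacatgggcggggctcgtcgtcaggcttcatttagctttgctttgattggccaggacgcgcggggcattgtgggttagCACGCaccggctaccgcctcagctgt

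The Slc16a3 window holds 36 CpG dinucleotides and 2 ACGTG cores, the Fbp2 window 6 CpG, 1 E-box and 1 TGACNNNGC match, and the Taldo1 window 22 CpG and 2 GCGTG cores. Windows were at hand for 38 of the 39 members, 56 windows in all, with a median of 17.5 CpG against 7 over all 32851 windows. ACGTG was in 41.1% of the members' windows and in 19.6% of all, GCGTG in 55.4% and 32.4%, and CACGTG in 10.7% and 7.15%. TGACNNNGC was in 12.5% of the members' windows and in 12.4% of all, and the TATA box TATAAA in 5.36% and 13.6%. These are shares of windows, not of genes, and overlapping windows of the same gene can count a site more than once. The part of CpG content in these shares was not tested, and a match is not a bound site.

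Of the 4 carriers, Slc2a3 and Slc16a3 differed between the genotypes by far more than Slc2a1 and Slc16a1. Slc2a3 encodes GLUT3, a glucose carrier of high affinity best known from neurons, and lies on chromosome 6 (122727809–122801640, minus strand, mm10). It had 797, 853, 917 and 1014 counts in untreated KO cells, against 23, 5, 1 and 1 counts in untreated WT cells. With H2O2 it had 876, 877 and 779 counts in KO cells, against 3, 2, 1 and 3 counts in WT cells. The transcript was thus plain in all 7 KO libraries and had at most 5 counts in 7 of 8 WT libraries, with the highest WT value in replicate 9. It averaged 61.3 ± 4.48 CPM in untreated KO cells (SD, n = 4), and the ratio of KO to WT was 120.5 (95% exact binomial interval 84.2 to 178.8, adjusted p 4.47e-11). Without replicate 9 that ratio was 386.6 (187.4 to 962.3), and with H2O2 it was 405.4 (213.2 to 887.5, adjusted p 5.29e-11). These ratios are of pooled CPM, and their intervals cover counting error only. The adjusted p come from the edgeR fit, at log2 fold changes of 6.89 untreated and 8.59 with H2O2. The neuronal marker list went the other way, with 5 markers summing to 4.72 to 5.38 CPM in untreated KO cells and 30.0 to 33.5 CPM in untreated WT cells, nearly all of it Map2, while Snap25 was at 0 throughout.

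Slc2a1, which encodes the widespread basal glucose carrier GLUT1, moved modestly in the opposite direction. It had 578.0, 524.1, 615.8 and 555.8 CPM in untreated KO cells, against 671.1, 684.8, 615.4 and 666.1 CPM in untreated WT cells, and the ranges touched. Treated KO cells had 606.5, 558.5 and 614.0 CPM, against 648.6, 662.6, 679.9 and 668.7 CPM in treated WT cells. It fell in KO cells by 0.21 on the log2 scale without treatment (SE 0.0432, adjusted p 8.59e-05) and by 0.17 with H2O2 (SE 0.0468, adjusted p 0.00294). Per length, GLUT1 transcripts stayed far more abundant: Slc2a3 made up 7.58% ± 0.745 of the summed RPKM (reads per kilobase per M) of both carriers in untreated KO cells (SD, n = 4) and 0.0576% ± 0.0798 in untreated WT cells (SD, n = 4). The summed RPKM of the pair was 128.4 ± 8.08 in KO cells and 140.9 ± 6.82 in WT cells.

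Slc16a3 encodes MCT4, the carrier of lactate export in highly glycolytic cells and a known hypoxia-inducible gene, and lies on chromosome 11 (120948480–120960868, plus strand). It had 6, 6, 0 and 2 counts in untreated KO cells, against 494, 467, 393 and 519 counts in untreated WT cells. After H2O2 there were 8, 3 and 2 counts in KO cells, against 531, 507, 510 and 461 counts in WT cells. All WT libraries held at least 393 reads and no KO library more than 8. The pooled level was 0.240 CPM in untreated KO cells and 31.8 CPM in untreated WT cells. The WT over KO ratio of these levels was 132.6 (95% exact binomial interval 78.8 to 242.9), and with H2O2 it was 107.3 (62.6 to 201.8). The edgeR fit gave KO over WT log2 fold changes of −7.00 untreated (adjusted p 1.18e-16) and −6.71 with H2O2 (adjusted p 1.09e-15).

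Slc16a1, which encodes the more broadly expressed lactate and pyruvate carrier MCT1, rose slightly. It had 274.1, 289.0, 272.2 and 297.4 CPM in untreated KO cells, against 251.7, 236.5, 262.7 and 242.0 CPM in untreated WT cells, and 270.7, 278.4 and 273.0 CPM in treated KO cells, against 240.2, 242.9, 226.6 and 247.3 CPM in treated WT cells. The groups did not overlap in either comparison, with log2 fold changes of 0.19 (SE 0.0391, adjusted p 0.000107) and 0.20 (SE 0.0423, adjusted p 0.000202). Slc16a3 supplied 0.0910% ± 0.0814 of the summed RPKM of these carriers in untreated KO cells and 11.6% ± 1.34 in untreated WT cells. The sum itself was 47.5 ± 2.11 RPKM in untreated KO cells and 48.1 ± 1.55 RPKM in untreated WT cells, so the means lay within the SD of each other.

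**Figure D2:**
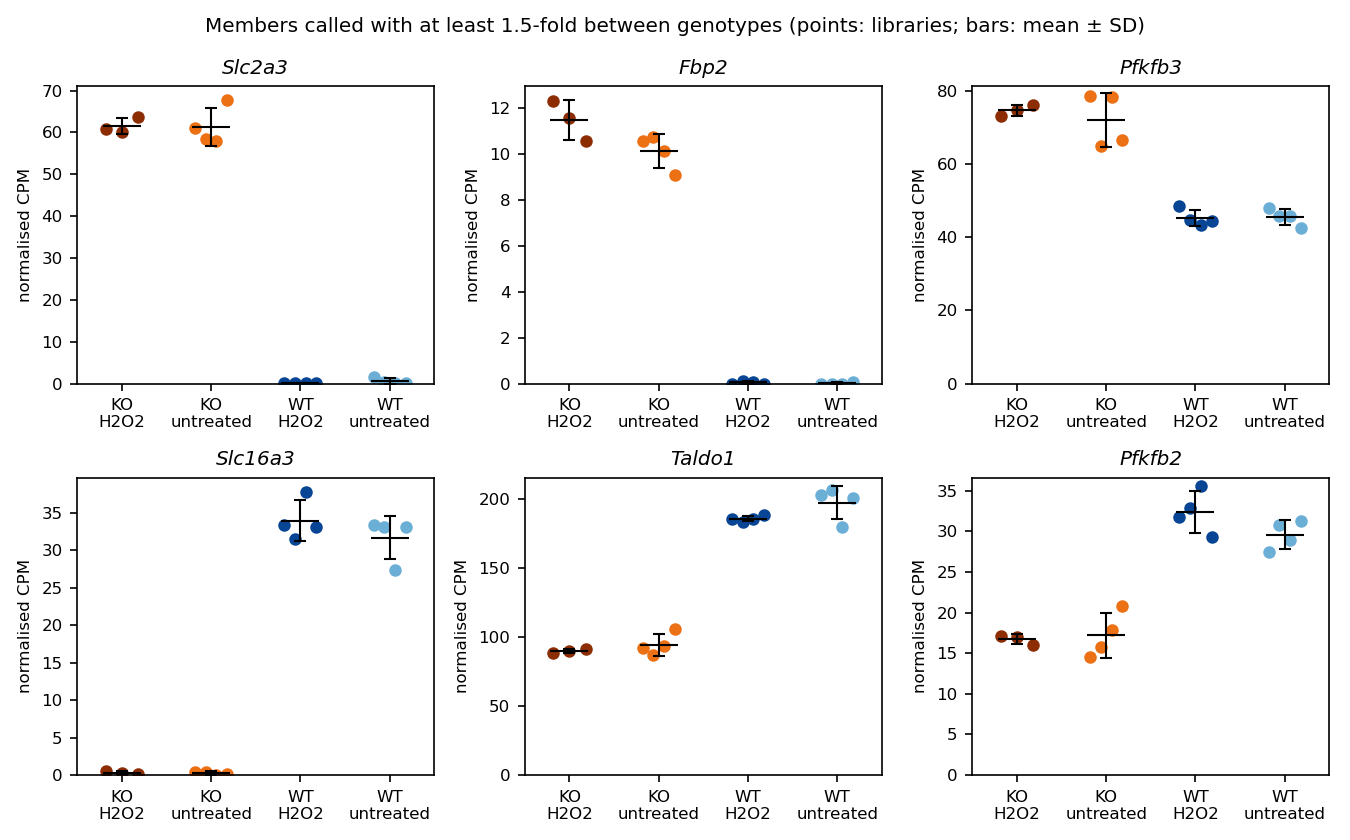
Normalised CPM (y axis, from 0) in each library for the 6 members called with at least a 1.5-fold difference between untreated genotypes; points are libraries, lines and bars the mean ± SD, and the groups run KO with H2O2, KO untreated, WT with H2O2, WT untreated (x axis). Slc2a3 and Fbp2 lie near 0 in WT cells and Slc16a3 near 0 in KO cells, and within each genotype the treated and untreated points lie at like heights.

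Fbp2 was the other member near silent in WT cells. The gene, on chromosome 13 (62836877–62858422, minus strand, mm10), encodes the muscle isozyme of fructose bisphosphatase, which reverses the phosphofructokinase step in gluconeogenesis. It had 138, 157, 160 and 136 counts in untreated KO cells, against 0, 0, 0 and 1 counts in untreated WT cells. Treated KO cells had 177, 168 and 129 counts, against 0, 2, 1 and 0 counts in WT cells. Every KO library held over 100 reads, and the 8 WT libraries held at most 2 each. The level was low in KO cells as well, at 10.1 ± 0.747 CPM untreated and 11.5 ± 0.872 CPM with H2O2. The KO over WT ratio of pooled CPM was 596.5 without treatment (95% exact binomial interval 106.6 to 23600). With H2O2 it was 227.7 (77.4 to 1108). The intervals are wide because WT cells gave 1 and 3 reads. The edgeR fit gave log2 fold changes of 8.63 untreated (adjusted p 5.04e-19) and 7.60 with H2O2 (adjusted p 7.12e-19).

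Fbp1, the liver and kidney isozyme of fructose bisphosphatase, lies 6330 bases from Fbp2 and had 4 counts over all 15 libraries. It had 1, 0, 0 and 0 counts in untreated KO cells against 1, 0, 0 and 0 in untreated WT cells, and was not tested. The other neighbours of Fbp2 with reads had them in both genotypes. 2010111I01Rik averaged 27.0 CPM in untreated KO cells and 24.1 CPM in untreated WT cells (log2 0.16, adjusted p 0.0244), Gm7049 5.14 and 7.78 CPM (log2 −0.61, adjusted p 0.000352), and Gm48795 2.51 and 4.38 CPM (log2 −0.79, adjusted p 0.000746). The skeletal muscle regulators Myog and Myod1 were at 0 in every library, and the 11 muscle markers summed to 4.67 to 5.88 CPM in untreated KO cells and 4.32 to 5.36 CPM in untreated WT cells. Of the 3 muscle markers tested, 1 was called higher and 1 lower in untreated KO cells. Myh1 averaged 3.77 CPM in untreated KO and 2.745 CPM in untreated WT cells, Tnnt3 1.197 and 0.737 CPM, and Tnni2 0.139 and 1.276 CPM. The 5 liver markers summed to 2.30 to 2.67 CPM in untreated KO cells and 0 to 0.142 CPM in untreated WT cells, with Alb and Ttr at 0. Serpina1a averaged 2.48 CPM in untreated KO cells and 0.0160 CPM in untreated WT cells, and Apoa1 0 CPM in KO and 0.0354 CPM in WT.

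The PFK2/FBPase2 enzymes make and remove the sugar bisphosphate that activates phosphofructokinase, and their isozymes differ in which of these activities prevails. Pfkfb3, whose product strongly favours synthesis and so drives glycolysis, was higher in KO cells. It had 78.7, 64.8, 78.2 and 66.6 CPM in untreated KO cells, against 47.9, 45.7, 45.8 and 42.5 CPM in untreated WT cells. After H2O2 it had 73.1, 74.7 and 76.2 CPM in KO cells, against 48.6, 44.6, 43.4 and 44.3 CPM in WT cells. No KO library reached down to a WT one. Its log2 fold change was 0.66 without treatment (SE 0.0583, adjusted p 7.08e-11) and 0.72 with H2O2 (SE 0.0626, adjusted p 6.66e-11).

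Pfkfb2, the isozyme known from heart, was lower. It had 14.5, 15.8, 17.8 and 20.8 CPM in untreated KO cells, against 27.5, 30.8, 28.9 and 31.2 CPM in untreated WT cells, and 17.2, 16.96 and 16.0 CPM in treated KO cells, against 31.7, 32.9, 35.6 and 29.2 CPM in treated WT cells. The groups did not overlap, and Pfkfb2 fell by 0.78 on the log2 scale without treatment (SE 0.0829, adjusted p 4.58e-09) and by 0.95 with H2O2 (SE 0.0911, adjusted p 6.82e-10). It overlaps Yod1, which lies on the opposite strand and averaged 16.1 CPM, and whether counting used strand is not given in the sources used here.

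Pfkfb4, an isozyme induced by hypoxia, had 28.9, 32.2, 33.6 and 39.5 CPM in untreated KO cells, against 38.6, 41.1, 38.2 and 42.9 CPM in untreated WT cells, where 1 KO library lay within the WT range. Treated KO cells had 32.4, 36.9 and 33.5 CPM, against 41.7, 41.4, 43.3 and 45.6 CPM in treated WT cells, with no overlap. It fell by 0.26 (adjusted p 0.00218) and by 0.32 on the log2 scale (adjusted p 0.000566). Pfkfb1, the liver isozyme, had 2.53 to 3.42 CPM in untreated KO cells and 2.30 to 4.12 CPM in untreated WT cells and was not called in either comparison (adjusted p 0.840 untreated and 0.313 with H2O2). Pfkfb1 overlaps Apex2 on the opposite strand, which averaged 5.66 CPM, above Pfkfb1 itself at 3.16 CPM. Per length, Pfkfb3 made up 51.6% ± 5.17 of the family's RPKM in untreated KO cells and 33.6% ± 1.80 in untreated WT cells, and Pfkfb2 13.0% ± 1.58 in KO and 23.1% ± 1.21 in WT. The ratio of Pfkfb3 to Pfkfb2 RPKM was 4.05 ± 0.875 in untreated KO cells and 1.46 ± 0.152 in untreated WT cells, while the family's sum was 21.6 ± 1.29 RPKM in KO and 21.4 ± 0.370 RPKM in WT.

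**Figure D3:**
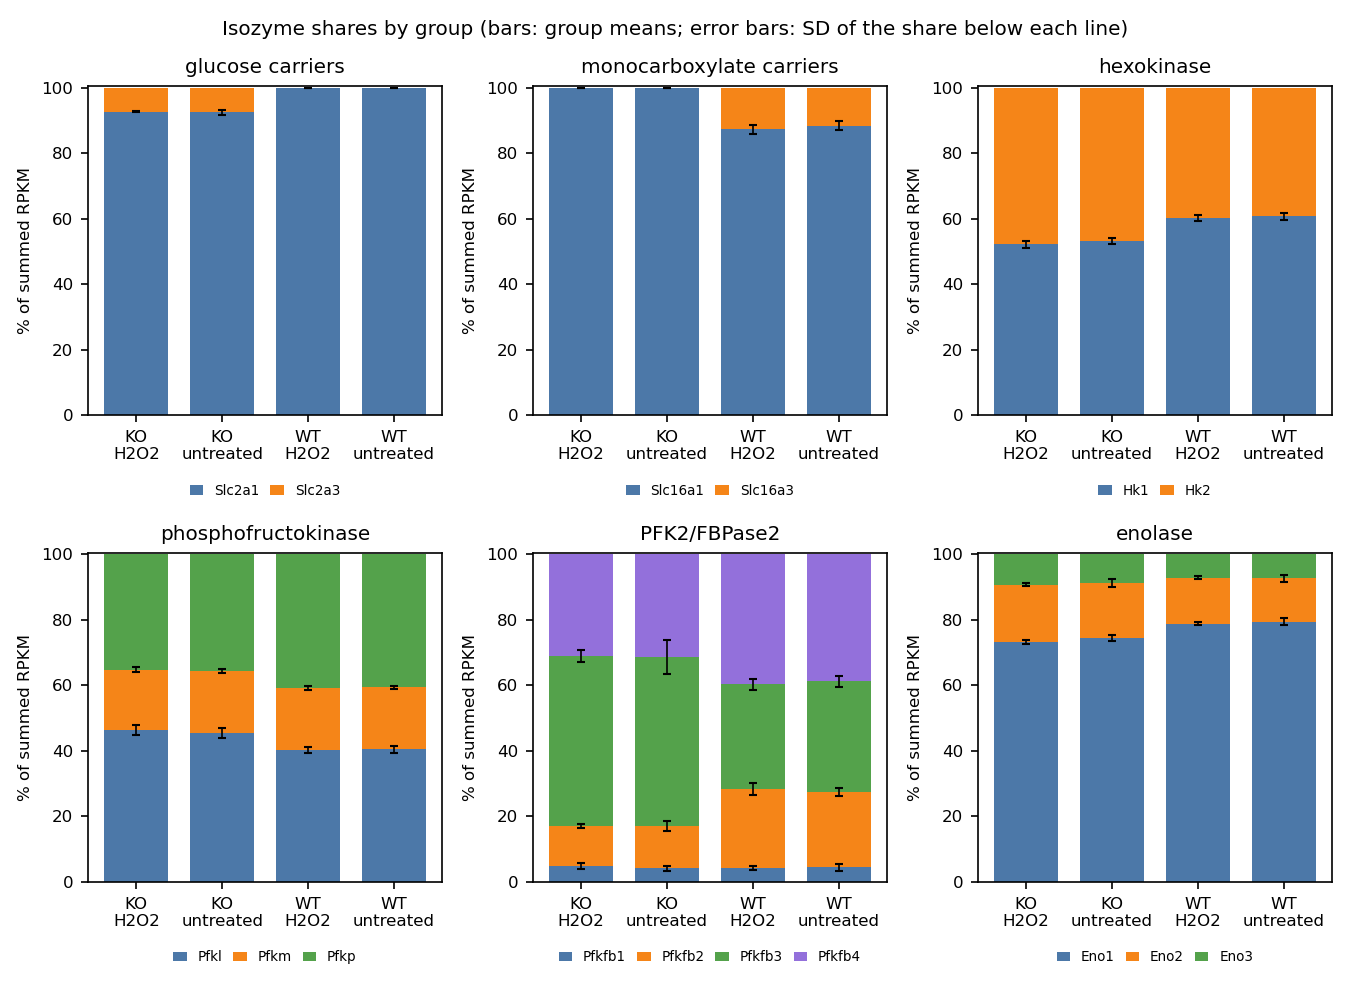
Share of each isozyme in the summed RPKM of its family (y axis, percent) for 6 families, with the groups KO with H2O2, KO untreated, WT with H2O2 and WT untreated (x axis); bars are group means and error bars the SD over libraries of the share below each line. Pfkfb3 takes 51.6% of its family in untreated KO cells and 33.6% in untreated WT cells, Slc16a3 11.6% of its pair in untreated WT cells and 0.0910% in untreated KO cells, and the treated bars stand close to the untreated ones of the same genotype.

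The preparatory steps, from hexokinase to triose phosphate isomerase, held 9 members, of which 5 were called higher, 1 lower and 3 not called in untreated KO cells, or 66.7% called against 66.8% of all genes. Of the hexokinases, which trap glucose by phosphorylation, Hk2, the form often raised in tumours, was higher (log2 0.20, SE 0.0374, adjusted p 3.77e-05) and Hk1 lower (log2 −0.25, SE 0.0366, adjusted p 1.01e-06). Hk2 made up 46.8% ± 0.981 of their summed RPKM in untreated KO cells and 39.2% ± 1.14 in untreated WT cells. The phosphofructokinases catalyse the main control step, and their liver form Pfkl rose most: it averaged 466.6 ± 29.2 CPM in untreated KO cells and 340.0 ± 15.3 CPM in untreated WT cells (log2 0.46, adjusted p 3.12e-09), and 501.0 ± 34.0 CPM in treated KO cells and 358.9 ± 14.8 CPM in treated WT cells (log2 0.48, adjusted p 4.74e-09).

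The muscle form Pfkm followed at a log2 fold change of 0.28 without treatment (adjusted p 5.72e-08), and the platelet form Pfkp at 0.10 (adjusted p 0.00881). The Pfkp call was lost with no filter on low counts (adjusted p 0.0605) and with limma on log2 RPKM (0.0569 and 0.0580). With H2O2 Pfkm was called again (log2 0.26, adjusted p 1.10e-06), while Pfkp had a log2 value of 0.07 and an adjusted p of 0.0818. The 3 together summed to 167.2 ± 6.10 RPKM in untreated KO cells and 140.1 ± 3.41 RPKM in untreated WT cells, with no overlap of libraries. Pfkl led the family in KO cells and was level with Pfkp in WT cells, at 45.5% ± 1.42 of the RPKM in untreated KO cells and 40.4% ± 0.957 in untreated WT cells, against 35.7% ± 1.29 in KO and 40.7% ± 0.719 in WT for Pfkp. Gpi1, glucose phosphate isomerase, rose by little (log2 0.15, adjusted p 0.000821). The aldolases Aldoa and Aldoc and triose phosphate isomerase Tpi1 were not called in either comparison, with log2 values between −0.02 and 0.20 and adjusted p between 0.139 and 0.915, and Tpi1 passed with H2O2 without treated KO replicate 7 (adjusted p 0.0482). Pfkm and Pfkp overlap genes on the opposite strand (Senp1 at 53.3 CPM and Pitrm1 at 241.3 CPM on average).

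The pay-off steps held 7 members, of which 3 were called higher and 1 lower, both without and with H2O2, or 57.1% called against 66.8% of all genes untreated and 65.4% with H2O2. The 3 were all enolases, which make phosphoenolpyruvate. Eno2, the neuronal form, had 228.8, 208.3, 248.4 and 203.8 CPM in untreated KO cells, against 139.4, 144.2, 151.2 and 164.4 CPM in untreated WT cells. Eno3, the muscle form, averaged 100.9 ± 6.23 CPM in untreated KO cells and 72.3 ± 3.07 CPM in untreated WT cells. The libraries of the genotypes did not overlap for either gene. Eno2 was 1.48-fold higher without treatment (adjusted p 2.35e-07) and 1.42-fold with H2O2 (adjusted p 2.62e-06), and Eno3 1.40-fold (adjusted p 1.93e-10) and 1.497-fold (adjusted p 1.75e-11), which put both just short of the 1.5-fold mark that Pfkfb3, at 1.58-fold, passed.

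Eno1, the widespread form, was higher by 0.13 on the log2 scale without treatment (adjusted p 0.00297) and by 0.10 with H2O2 (adjusted p 0.0324). The treated call was lost without any of 5 treated libraries, KO replicates 5 and 8 and WT replicates 13, 14 and 16 (adjusted p 0.0505 to 0.205), and with upper quartile scaling (0.0845), no filter on low counts (0.0717) or limma on log2 RPKM (0.129). Its counts can be split with Eno1b, a near-identical intronless copy listed at 1064 ± 53.9 CPM in untreated KO cells and 973.6 ± 47.8 CPM in untreated WT cells. The sum of both, a reading chosen after the data were seen, was 1951 ± 59.9 CPM in untreated KO cells and 1785 ± 76.5 CPM in untreated WT cells. Gapdh, glyceraldehyde phosphate dehydrogenase, was the 1 member called lower, by 0.10 on the log2 scale untreated (adjusted p 0.0331) and by 0.11 with H2O2 (adjusted p 0.0264), and its libraries overlapped. The untreated call was lost without KO replicate 2 or WT replicate 9, 10 or 12 (adjusted p 0.0506 to 0.145) and when these 2 groups were fitted alone (0.0605), and the treated one without KO replicate 7 or WT replicate 15 or 16 (adjusted p 0.0613 to 0.182). Pgk1, Pgam1 and Pkm (phosphoglycerate kinase, phosphoglycerate mutase and pyruvate kinase) were not called, with log2 values between −0.09 and 0.10. Pkm contains the overlapping same-strand gene Gm49759 and missed the threshold narrowly with H2O2 (adjusted p 0.0561). It passed without WT replicate 11 in both comparisons (adjusted p 0.0207 untreated and 0.0382 with H2O2), and with H2O2 also without KO replicate 2, KO replicate 4 or WT replicate 13 (adjusted p 0.0334 to 0.0434). Pkm also passed as lower with upper quartile scaling (adjusted p 0.0437 untreated and 0.0225 with H2O2) and with limma on log2 RPKM (0.0365 and 0.0379 untreated, 0.0283 and 0.0295 with H2O2). With H2O2 it passed as well with DESeq2 size factors in edgeR (0.0468), with DESeq2 (0.0335) and when these 2 groups were fitted alone (0.0149). Without WT replicate 9, Pgk1 and Pgam1 passed as higher in untreated KO cells (adjusted p 0.0125 for Pgk1 and 0.0370 for Pgam1), as did Pgam1 without KO replicate 2 (0.0451). With H2O2, Pgk1 passed as higher without WT replicate 15 (adjusted p 0.0411) and when these 2 groups were fitted alone (0.033).

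Per length, Pkm ranked first of the 39 in every group, at 1258 ± 65.4 RPKM in untreated KO cells and 1349 ± 55.2 RPKM in untreated WT cells. Below it, the order of Ldha, Pgk1 and Gapdh changed with genotype. Ldha encodes the lactate dehydrogenase subunit that favours the reduction of pyruvate. Ldha ranked 2 of 39 at 765.9 ± 44.0 RPKM in untreated KO cells, ahead of Pgk1 at 704.1 ± 44.2 and Gapdh at 644.2 ± 29.2, and 4 of 39 at 638.7 ± 35.3 RPKM in untreated WT cells, behind Gapdh at 704.4 ± 34.6 and Pgk1 at 673.9 ± 49.3. The mean ± SD range of Pgk1 overlapped those of Ldha and Gapdh in both groups, and those of Ldha and Gapdh overlapped in untreated WT cells. In CPM, Ldha had 2428, 2133, 2187 and 2235 in untreated KO cells, against 1954, 1819, 1714 and 1840 in untreated WT cells, and 2404, 2245 and 2389 in treated KO cells, against 1865, 1901, 1965 and 1912 in treated WT cells. All 7 KO libraries lay above all 8 WT libraries, with log2 fold changes of 0.29 (SE 0.0411, adjusted p 3.93e-07) and 0.30 (SE 0.0442, adjusted p 1.23e-06). Ldhb, the other subunit, had at most 0.27 CPM in any library and was not tested.

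**Figure D4:**
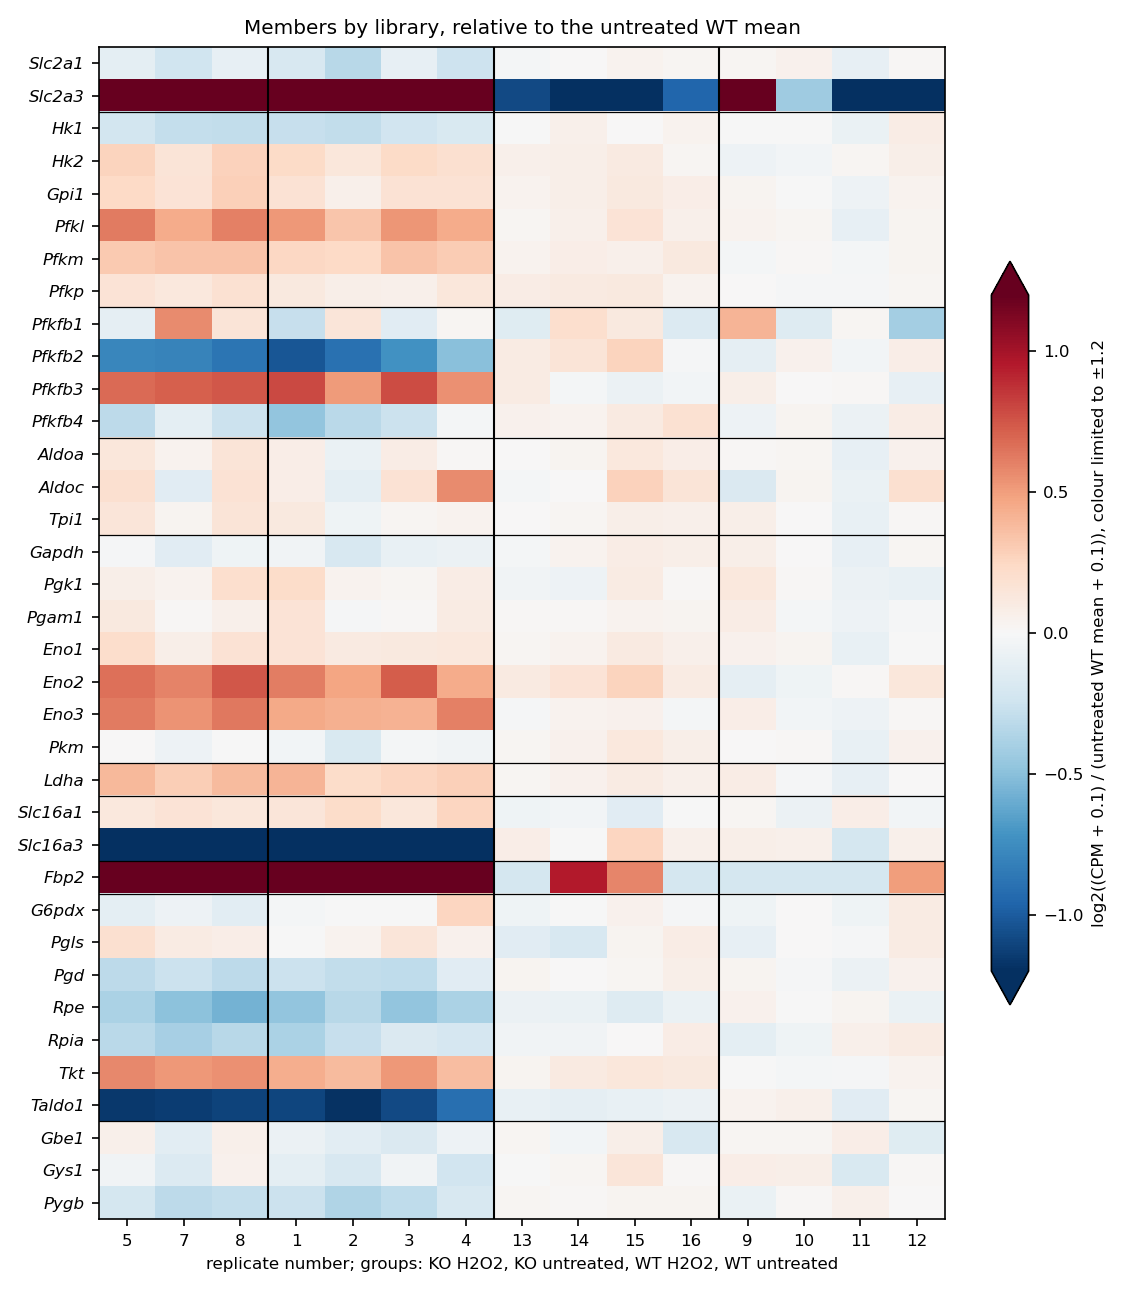
Each tested member (rows, in pathway order) in each library (columns by replicate number, in the groups KO with H2O2, KO untreated, WT with H2O2 and WT untreated), coloured by log2 of (CPM + 0.1) over (untreated WT mean + 0.1), with colours limited to ±1.2. The colour changes at the border between KO and WT columns, in red for Slc2a3, Fbp2, Pfkl, Pfkfb3, Eno2, Eno3, Ldha and Tkt and in blue for Slc16a3, Taldo1, Pfkfb2, Rpe, Rpia and Pgd, and little at the borders between treated and untreated columns.

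The pentose phosphate pathway held 7 members, of which 1 was called higher, 4 lower and 2 not called in untreated KO cells, or 71.4% called against 66.8% of all genes. The transketolase and transaldolase of its non-oxidative arm, which together shuttle carbon back to glycolysis, moved apart. Taldo1, transaldolase, on chromosome 7 (141392199–141402968, plus strand), had 91.8, 87.0, 93.4 and 105.8 CPM in untreated KO cells, against 203.0, 206.5, 179.9 and 201.2 CPM in untreated WT cells. With H2O2 it had 88.4, 89.7 and 91.4 CPM in KO cells, against 185.9, 183.6, 185.8 and 188.4 CPM in WT cells. The highest KO library lay well below the lowest WT library. Taldo1 fell by 1.06 on the log2 scale untreated (SE 0.0479, adjusted p 3.40e-17) and by 1.05 with H2O2 (SE 0.0531, adjusted p 5.74e-16).

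Tkt, transketolase, had 382.0, 367.8, 406.6 and 365.5 CPM in untreated KO cells, against 282.6, 279.0, 280.0 and 290.7 CPM in untreated WT cells. With H2O2 it had 423.4, 405.8 and 415.1 CPM in KO cells, against 288.7, 305.4, 312.0 and 308.0 CPM in WT cells. Again the genotypes did not overlap, and Tkt rose by 0.43 on the log2 scale untreated (SE 0.0371, adjusted p 5.15e-11) and by 0.45 with H2O2 (SE 0.0397, adjusted p 7.83e-11). Per length, Tkt was at 2.00 ± 0.199 times the level of Taldo1 in untreated KO cells and at 0.708 ± 0.0439 times in untreated WT cells, and at 2.28 ± 0.0728 and 0.805 ± 0.0276 times in treated KO and WT cells. The order of the pair was thus reversed in every library, and Taldo1 ranked 20 of 39 in untreated KO cells and 12 of 39 in untreated WT cells.

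Rpe, ribulose phosphate epimerase, averaged 33.3 ± 1.61 CPM in untreated KO cells and 44.4 ± 1.82 CPM in untreated WT cells (log2 −0.41, adjusted p 8.14e-08), and Rpia, ribose phosphate isomerase, 30.6 ± 1.89 and 36.6 ± 2.54 CPM (log2 −0.26, adjusted p 0.000352). Pgd, phosphogluconate dehydrogenase, the second NADPH-making step of the oxidative arm, averaged 170.9 ± 9.30 CPM in untreated KO cells and 202.7 ± 7.84 CPM in untreated WT cells (log2 −0.25, adjusted p 3.49e-06). With H2O2 the log2 values were −0.38 for Rpe, −0.36 for Rpia and −0.33 for Pgd, all called. Rpe overlaps Kansl1l on the opposite strand (19.4 CPM on average).

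The entry enzyme G6pdx, glucose phosphate dehydrogenase, was not called in either comparison: it averaged 104.0 ± 10.3 CPM in untreated KO cells and 99.7 ± 4.82 CPM in untreated WT cells (log2 0.06, adjusted p 0.294), and 93.0 ± 2.27 CPM in treated KO cells and 99.5 ± 2.90 CPM in treated WT cells (log2 −0.10, adjusted p 0.138, or 0.0239 when these 2 groups were fitted alone). It overlaps Ikbkg on the opposite strand, which averaged 115.7 CPM. Pgls, phosphogluconolactonase, had a log2 value of 0.06 without treatment (adjusted p 0.389) and was called higher with H2O2 (log2 0.18, adjusted p 0.0220), where its libraries overlapped and the call was lost without KO replicate 5 or WT replicate 13 or 14 (adjusted p 0.0745 to 0.123).

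The glycogen members differed little. Brain-type phosphorylase Pygb, which releases glucose from glycogen, fell by 0.28 on the log2 scale in untreated KO cells (63.6 ± 3.11 CPM in KO and 77.0 ± 3.11 CPM in WT, adjusted p 2.49e-06) and by 0.29 with H2O2 (adjusted p 3.83e-06). Gys1, muscle glycogen synthase, was lower by 0.14 without treatment (adjusted p 0.0317) with overlapping libraries, a call lost without KO replicate 2 or 4 or WT replicate 9, 10 or 12 (adjusted p 0.0543 to 0.101), and had a log2 value of −0.09 with H2O2 (adjusted p 0.196). Gys1 overlaps Ruvbl2 on the opposite strand (80.25 CPM on average). The branching enzyme Gbe1 was not called (adjusted p 0.104 untreated and 0.691 with H2O2), but passed as lower in untreated KO cells without WT replicate 12 (adjusted p 0.0143). The liver phosphorylase Pygl had 2.16 CPM in replicate 9 of untreated WT, the library with the immune transcripts, and at most 0.0718 CPM in any other library, and it was not tested.

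No response to H2O2 was detected in these genes. None of the 36 tested members was called between treated and untreated cells in KO (0.0535% of all genes called) or in WT (0.0153% called), and none was called for a difference in response between the genotypes (0% called), by edgeR's quasi-likelihood test or by DESeq2. At an unadjusted p under 0.05 there were 4 members in KO cells, 5 in WT cells and 1 in the difference of responses, where 7.96%, 6.47% and 6.18% of all genes passed. Treated and untreated libraries did not overlap for 1 member in KO cells (G6pdx, against 7.71% of all genes) and for 3 in WT cells (Gpi1, Pfkm and Pfkp, against 3.81%). The lowest adjusted p was 0.355 in KO cells, 0.626 in WT cells and 0.806 for the difference.

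The members nearest to a response were small in size. Tkt had the lowest p in KO cells and was higher by 0.12 on the log2 scale with H2O2 (SE 0.0397, adjusted p 0.355), with 405.8 to 423.4 CPM treated and 365.5 to 406.6 CPM untreated. Pfkp had the lowest p in WT cells, at 504.2 to 527.9 CPM treated and 482.8 to 496.9 CPM untreated (log2 0.09, SE 0.0322, adjusted p 0.626). G6pdx was the member with the lowest p for a difference in response (−0.16 in KO relative to WT, adjusted p 0.806), and in KO cells it had 91.5 to 95.6 CPM treated and 98.0 to 119.5 CPM untreated. The median log2 fold change of the members was 0.05 in KO and 0.04 in WT cells, against 0 in KO and −0.0004 in WT cells over all genes, and 26 of 36 in KO and 28 of 36 in WT had a positive value. Among 36 further genes around these pathways, named below, 27 in KO and 18 in WT had a positive value. Genes read in the same libraries do not give independent signs, and these counts were not tested. For the members with most counts the precision was fine, with an SE of 0.0429 for Gapdh in KO and 0.0397 in WT cells, whereas Pfkfb1 at about 3 CPM had an SE of 0.199 in KO cells.

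**Figure D5:**
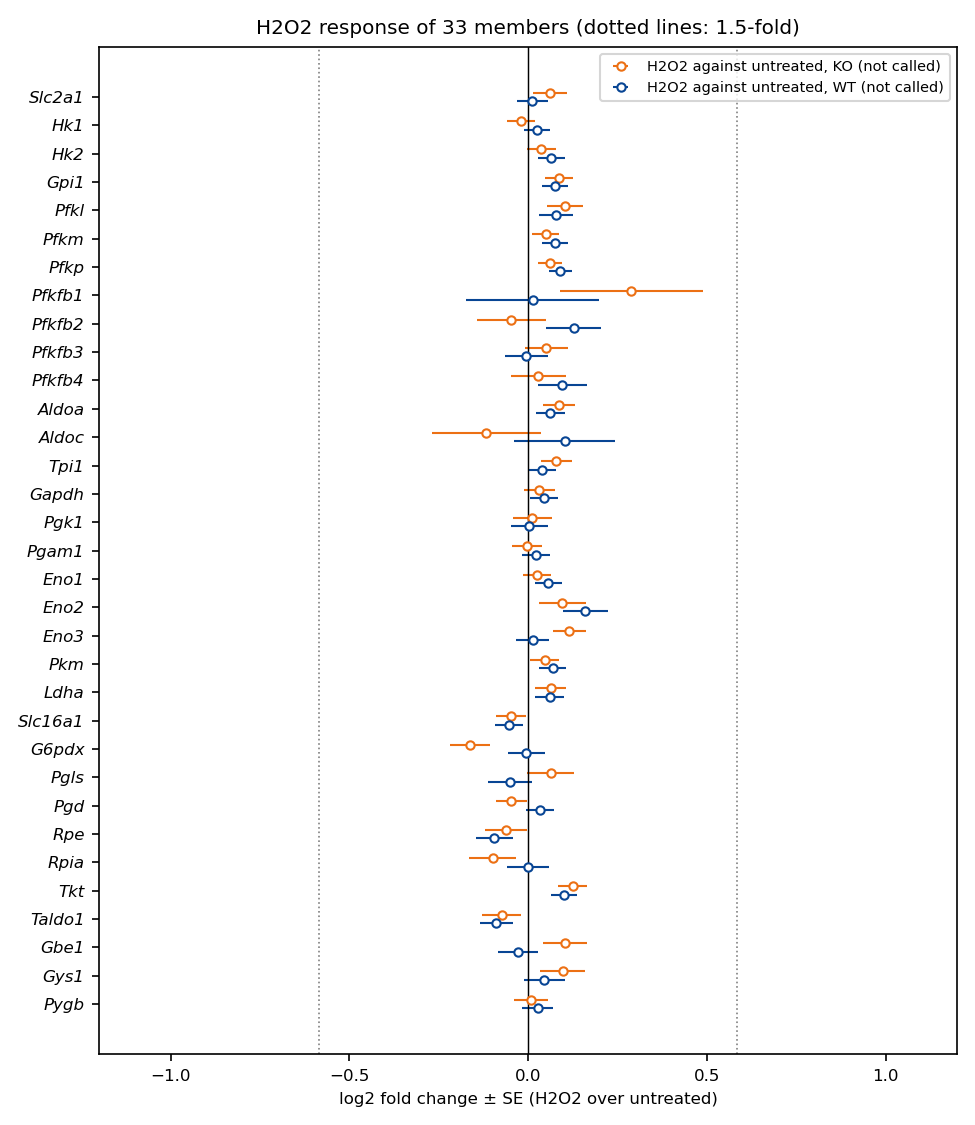
Log2 fold change of H2O2 over untreated (x axis) with its standard error for 33 members (y axis; Slc2a3, Slc16a3 and Fbp2 are left out because they are near 0 in WT or KO cells), in KO cells in orange and in WT cells in blue; open points did not pass an adjusted p of 0.05 and dotted lines mark 1.5-fold. No point is filled, and all lie inside the 1.5-fold lines.

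A further 66 genes around these pathways, other carriers, gluconeogenic and ribose enzymes and regulators of glycogen, were listed by function; the count table holds 65 of them, and 36 had enough counts for the test. In untreated KO cells 12 were higher and 14 lower, and with H2O2 13 were higher and 11 lower, shares near those of all genes (66.8% and 65.4% called). At 1.5-fold or more, 10 of the 36 were called without treatment (27.8%, against 24.4% of all genes) and 11 with H2O2 (30.6%, against 25.4%). Of the 10, the 7 with at least 5 CPM in the higher group are named here. Slc2a9, a urate carrier of the GLUT family, averaged 42.6 ± 1.99 CPM in untreated KO cells and 11.8 ± 0.577 CPM in untreated WT cells (log2 1.85, adjusted p 5.11e-18). Txnip, whose product restrains glucose uptake and thioredoxin, averaged 9.55 ± 1.82 CPM in untreated KO cells and 2.99 ± 0.515 CPM in untreated WT cells (log2 1.67, adjusted p 3.30e-11).

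Ldhd, mitochondrial D-lactate dehydrogenase, rose to 24.3 ± 1.26 CPM in untreated KO cells, against 12.6 ± 0.603 CPM in untreated WT cells (adjusted p 1.84e-11), and Pgm2l1, a sugar bisphosphate synthase, to 13.2 ± 0.453 CPM in KO, against 8.43 ± 0.660 CPM in WT (adjusted p 8.91e-08). Stbd1, which anchors glycogen to membranes, was the most reduced, at 0.694 ± 0.194 CPM in untreated KO cells and 15.3 ± 1.52 CPM in untreated WT cells. Its WT over KO ratio of pooled CPM was 21.8 (95% exact binomial interval 16.0 to 30.6), and its adjusted p in the edgeR fit was 3.46e-20. Phkb, a subunit of phosphorylase kinase, fell by 0.70 on the log2 scale (adjusted p 1.48e-11), and Shpk, a sedoheptulose kinase that feeds the non-oxidative pentose phosphate arm, by 0.72 (adjusted p 0.000287). With H2O2 all 7 were called in the same direction, with log2 fold changes of 1.85, 1.93, 1.01, 0.67, −4.23, −0.69 and −0.59 in the order named.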

How the data were processed

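Per the labels' protocols, stranded TruSeq mRNA libraries were read as pairs by a NextSeq instrument. The authors deposited expected counts by gene symbol, for which the submitters' processing notes name cutadapt, STAR, RSEM and mm10; versions, settings and use of strand are not given in the sources used here. All deposited expected counts were already whole. The authors' second table holds RPKM for 53528 of the 55341 symbols.

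Counts were tested with edgeR 4.0.16 (R 4.3.3, limma 3.58.1): filterByExpr left 13085 genes (99.917% of counts), scaled by TMM, in 1 quasi-likelihood fit with robust dispersion to 4 group means (11 residual degrees of freedom). P-values were Benjamini-Hochberg adjusted over all genes tested and called under 0.05. The fit was tested on simulated data in which few genes differed, unlike the genotype comparisons here. Log2 fold changes come from this fit, with approximate SE. CPM are TMM-scaled, RPKM served for shares and for levels between genes, and for genes near 0 the ratio of pooled CPM has a 95% exact binomial interval. Groups follow titles. Members and lists were chosen with earlier results of these data known. Every library was given for members called with at least 1.5-fold and no overlap in the untreated genotype comparison and for their isozymes, ranges or means for the rest; other pathway genes were named at 1.5-fold and 5 CPM. Alternatives were DESeq2 1.42.0, other scalings and filters, fits on 2 groups, limma-trend on log2(RPKM + 0.1) and log2(RPKM + 1), and leaving out each library. Replicate pairs differed beyond sampling noise (chi-square per degree of freedom 2.07 to 8.12), so none was merged.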

Additional observations from a re-analysis of the deposited data

Results flagged for a closer look

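Within groups of 4 libraries, 11 of 114 sets of member values had a library far from the other 3 by Dixon's criterion at the 95% level, which chance gives in about 1 of 20. In untreated KO cells, replicate 2 was low for Gpi1 (971.1 CPM, others 1044 to 1050) and for Pkm (4283 CPM, others 4705 to 4777), and replicate 4 was high for G6pdx (119.5 CPM, others 98.0 to 99.5). In WT cells, untreated replicate 11 was low for Slc16a3 (27.3 CPM, others 33.1 to 33.4) and treated replicate 15 was low for Rpe (40.0 CPM, others 42.0 to 42.2). The other 6 are genes near 0, where the remaining libraries were at 0. In such sets any read in 1 library meets the criterion, so the rate of 1 of 20 does not apply to them. Fbp1 had 0.0766 CPM in replicate 1 of untreated KO and 0.0675 CPM in replicate 9 of untreated WT, and Fbp2 0.0638 CPM in replicate 12 of untreated WT. Ldhb had 0.144 CPM and Pygl 0.0718 CPM in replicate 16 of treated WT, and Pygl had 2.16 CPM in replicate 9 of untreated WT.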

How the results depend on the processing

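No paired analysis was possible because the replicate numbers run from 1 to 16 and no groups share one. Leaving out each library in turn gave 14 to 16 members higher and 10 to 13 lower in the untreated genotype comparison and 12 to 15 and 10 to 12 with H2O2; the other settings gave 13 to 14, 11 to 13, 13 to 15 and 11 to 13, and 0 members in the H2O2 comparisons and the interaction throughout. No result reversed. Of 4283 values of single genes under an alternative, 28 lost and 22 gained a call, all in 11 genes with small differences (Pfkp, Tpi1, Gapdh, Pgk1, Pgam1, Eno1, Pkm, G6pdx, Pgls, Gbe1 and Gys1); the cause was not tested. Over all genes, the calls for H2O2 in KO cells were 7 and with DESeq2 37, in WT cells 2 and 9, and for the interaction 0 and 10; without a filter on low counts they were 27, 12 and 5, and leaving out each library in turn gave 0 to 21, 0 to 13 and 0 to 3. Another scaling moved the median of all genes by at most 0.02 (log2). Depth limits Slc2a3 and Fbp2 in WT cells and Slc16a3 in KO cells, whose fold changes are known only within wide counting intervals, and members under 5 CPM.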
